A study of Arabidopsis thaliana with 4 samples.

Results

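Whole Arabidopsis thaliana seedlings (ecotype Col-0) overexpressing the microRNA miR164 (miR164OE) were compared after prolonged heat and without heat. The comparison uses 2 of the 4 RNA libraries of the series: the miR164OE heat library, from seedlings moved to 35 °C when 5 days old and kept there for 5 days, and the miR164OE control library, from seedlings kept at 22 °C. The other 2 libraries, wild-type (WT) heat and WT control, are given beside them. The sources used here do not give the age of the control seedlings at harvest, the promoter driving miR164 or how many lines and plants were pooled. All plants grew under 16 h of light and 8 h of dark, per the labels. There was 1 library in each group, so no difference below has a replicate check and none has a p-value.

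The deposited values are FPKM, the fragments assigned to a gene divided by its length and by the size of the library. Each of the 32823 rows is named for 1 gene. A row was described when the mean of its heat and control values was at least 20 FPKM, which 2482 rows reached. Differences are log2(FPKM + 1) in heat minus log2(FPKM + 1) in control, and a row counts as higher or lower where that difference is 1 or more in size, about 2-fold. Nuclear rows (2435 of 32538), mitochondrial rows (41 of 152) and plastid rows (6 of 133) are described apart.

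Heat unfolds proteins, and plant cells answer through heat shock factors, which bind short heat shock elements in promoters and switch on chaperones. Some transposable elements carry the same promoter elements: ONSEN, a copia-type retrotransposon of Arabidopsis, is known for being transcribed under heat. The mitochondrion and the plastid keep small genomes of their own, with genes for respiration, photosynthesis and their ribosomes. miR164 guides the cutting of mRNAs for NAC-type regulators, among them ORE1, a promoter of leaf ageing.

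The mature miR164 sequences are shown because this microRNA is the one overexpressed. The capitals mark the seed, bases 2 to 8, which is the same in the 3 members. They were read from RefSeq's TAIR10.1 genome at the annotated loci of MIR164A (chr2:19520770-19520790, plus strand), MIR164B (chr5:287586-287606, plus strand) and MIR164C (chr5:9852684-9852704, plus strand).
ath-miR164a: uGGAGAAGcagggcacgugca
ath-miR164b-5p: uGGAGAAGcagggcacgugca
ath-miR164c-5p: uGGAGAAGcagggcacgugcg

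A pair of DNA stretches is shown because rows described below lie near an ONSEN copy or opposite HSP17.4. The first is the start of the 5′ repeat of the ONSEN copy at AT5G13205 (chr5:4212860-4213059, minus strand, TAIR10.1); the row AT5G13200 overlaps the other, 3′ end of that copy. The second is the stretch before the start of HSP17.4 (AT3G46230; chr3:16984868-16985117, minus strand, TAIR10.1), a small heat shock protein gene. Capitals mark the heat shock element motifs GAANNTTC and TTCNNGAA, each of which reads the same on both strands and may overlap the other.
ONSEN 5′ repeat: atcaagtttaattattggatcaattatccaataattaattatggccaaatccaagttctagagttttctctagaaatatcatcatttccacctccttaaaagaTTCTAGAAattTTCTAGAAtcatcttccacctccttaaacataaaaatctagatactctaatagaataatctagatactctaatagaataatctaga
HSP17.4 promoter: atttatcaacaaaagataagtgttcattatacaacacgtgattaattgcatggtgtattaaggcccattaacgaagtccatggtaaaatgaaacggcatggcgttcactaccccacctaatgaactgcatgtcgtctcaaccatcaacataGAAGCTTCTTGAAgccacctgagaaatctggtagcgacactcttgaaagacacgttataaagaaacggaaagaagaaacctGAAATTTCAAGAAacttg

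The HSP17.4 stretch held 4 motifs and the ONSEN repeat 2. Among the 250 bases before the start of all 27444 coding genes of chromosomes 1 to 5, 16.1% held at least 1 such motif and 1.75% at least 2. For the small heat shock protein list it was 7 of 17 genes, for the HSP100, HSP90 and HSP70 chaperones 2 of 25, and for the light-harvesting and photosystem list 7 of 40. A match describes the letters and does not show a bound site.

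The miR164OE label could not be checked by the precursors, since MIR164A, MIR164B and MIR164C were listed at 0 in all 4 libraries. Of the 6 NAC target genes, CUC1, CUC2, NAC080 and NAC100 were also at 0 in all 4. ORE1 was listed at 1.48 FPKM in miR164OE heat and 0 in miR164OE control, and at 11.2 FPKM in WT heat and 2.73 in WT control. NAC1 had 27.2 FPKM in miR164OE heat and 11.005 in miR164OE control, a difference of 1.23, against 38.3 FPKM in WT heat and 5.43 in WT control. The row opposite NAC1, AT1G08087, had 65.7 FPKM in miR164OE heat and 49.2 in miR164OE control, and 96.2 in WT heat and 35.9 in WT control. NAC1 and the row opposite it were higher in heat than in control within both genotypes, the latter by under 2-fold in miR164OE (difference 0.41). ORE1 was also listed higher in heat in both. Its miR164OE heat value stands for an estimated 1.57 fragments, too few to give a direction. The own rows of NAC1 and ORE1 were below the minimum.

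The libraries themselves differed. FPKM summed to 1065963 in miR164OE heat and 1983185 in miR164OE control, and 56.2% and 69.2% of the rows were listed at 0. A fragment on 1 kb of transcript was worth about 1.24 FPKM in miR164OE heat and 2.21 in miR164OE control, so that 20 FPKM on 1 kb stands for about 16.2 and 9.04 fragments. Rows lying mostly (50% or more of exon bases) opposite a coding gene held 75.4% of the sum in miR164OE heat and 86.3% in miR164OE control. The kit keeps strand, per the labels, but the sources used here do not give the strand setting of the counting. Whether a row's value comes from the gene it is named for or from the partner on the other strand therefore cannot be told. This holds for own rows and opposite rows alike. Whether the strands were swapped in the counting was not tested. All 4 leaf marker genes were above 0 in both miR164OE libraries, with summed levels of 185 FPKM in heat and 249 in control. Root markers above 0 numbered 4 of 10 in heat and 2 of 10 in control (sums of 20.2 and 6.07 FPKM), and NRT2.1, CASP1 and IRT1 were at 0 in both. Seed markers summed to 1.92 FPKM in heat and 10.8 in control, and flower markers to 0 and 8.93. The part of tissue make-up in the differences was not tested, and in whole seedlings fewer cells of a type and less RNA per cell cannot be told apart.

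Over all 2482 rows, 483 passed the 2-fold rule upwards in miR164OE heat (19.5%) and 585 downwards (23.6%). Among the 2435 nuclear rows, 440 were at least 2-fold higher in miR164OE heat (18.1%) and 581 at least 2-fold lower (23.9%), with a median difference of -0.18. Lower rows prevailed at high levels. Of the 20 nuclear rows with the highest means, 16 were at least 2-fold lower and none higher, and these 20 held 31.1% of all FPKM in miR164OE heat and 53.9% in miR164OE control. The balance depends on the scale: with the nuclear rows of both libraries brought to a common sum, 1361 rows were higher and 236 lower, and the median difference was 0.88. On that scale every heat value is 1.92 times as high. With heat values rescaled by only 1.14, which brings the median near 0, 549 rows were higher and 504 lower. The higher and lower calls thus hold for FPKM as deposited.

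The 3 overlap classes differed. Of 717 rows with no gene on the other strand, 171 were higher (23.8%) and 135 lower (18.8%), with a median of 0.07. Of 888 rows lying opposite a coding gene, 126 were higher (14.2%) and 246 lower (27.7%), with a median of -0.39. Of 830 partly overlapped rows, 143 were higher and 200 lower, with a median of -0.14. Summed FPKM of the rows with no overlap was 62410 in miR164OE heat and 65379 in miR164OE control. That of the rows opposite a coding gene was 801157 in heat and 1709939 in control. Over the 170 such rows whose mean reached 1000 FPKM, the rows of the genes opposite them summed to 0.808% of their level in miR164OE heat and 0.307% in miR164OE control, a share 2.63 times as high in heat. This share was pooled over the genes and was not followed row by row. Its part in the heat differences of genes' own rows given below was not tested.

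**Figure D1:**
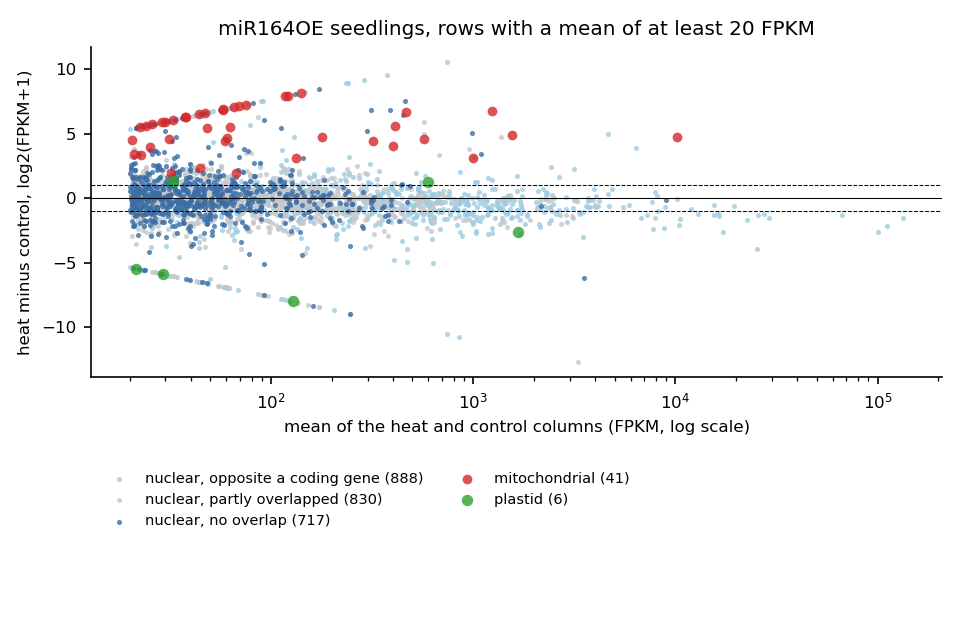
Difference between miR164OE heat and miR164OE control (vertical axis, heat minus control on the log2(FPKM+1) scale) against the mean of both columns (horizontal axis, FPKM, log scale), 1 point for each of the 2482 rows, coloured by genome and overlap class; dashed lines mark a difference of 1 in either direction. All 41 mitochondrial rows lie above the upper line, while the nuclear rows at the highest levels lie mostly below 0; the slanted edges are rows listed at 0 in 1 of the libraries.

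Small heat shock proteins, chaperones that hold unfolding proteins in solution, were higher in miR164OE heat wherever they were measured at this level. The row with by far the most signal was AT3G07365, which lies wholly opposite HSP17.4, the gene whose promoter is printed above. It had 9026 FPKM in miR164OE heat and 287 in miR164OE control, a difference of 4.97, and 8610 FPKM in WT heat and 306 in WT control. Both heat libraries were thus far above both controls. HSP17.4's own row was listed at 13.9 FPKM in miR164OE heat and 0 in miR164OE control, and at 11.2 FPKM in WT heat and 0 in WT control.

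Of the 17 small heat shock protein genes, 2 own rows reached the minimum. AT5G59720, a cytosolic member (listed as HSP18.1), had 113 FPKM in miR164OE heat and 24.4 in miR164OE control (difference 2.16; WT 64.9 and 25.1). HSP15.7, a peroxisomal member, had 54.4 FPKM in miR164OE heat and 9.99 in miR164OE control (difference 2.33; WT 39.3 and 14.05). Summed over the 17 own rows, the level was 307 FPKM in miR164OE heat and 49.4 in miR164OE control, or 6.22-fold, against 198 and 55.3 FPKM in WT heat and WT control.

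The larger chaperones were mostly below the minimum, and HSP70-1, the main cytosolic HSP70, was the only 1 of 25 genes to reach it. It had 54.8 FPKM in miR164OE heat and 21.1 in miR164OE control, a difference of 1.33, while WT heat and WT control had 30.8 and 32.8 FPKM. With the minimum lowered to 1 FPKM, 20 of 22 rows of this list were higher by 2-fold or more and 0 lower, where 33.2% of all 10378 nuclear rows were higher and 18.5% lower. At that level a value can rest on a few fragments, and 9 of the 22 were listed at 0 in miR164OE control. ATJ3, a DnaJ co-chaperone, had 27.2 FPKM in miR164OE heat and 3.67 in miR164OE control, HSP90.5 of the plastid 15.1 and 1.43, and HSP90.1 of the cytosol 15.5 and 1.13. The summed level of the 25 genes was 232 FPKM in miR164OE heat and 39.3 in miR164OE control (5.91-fold), and 132 FPKM in WT heat and 86.5 in WT control (1.53-fold). No test of that difference between the genotypes is possible with 1 library each.

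No folding gene of the endoplasmic reticulum reached the minimum mean of 20 FPKM. With the minimum at 1 FPKM, 9 of 13 were higher by 2-fold or more and 0 lower. Of all 10378 nuclear rows at that minimum, 33.2% were higher and 18.5% lower. Among the 13, 3 were listed at 0 in miR164OE control. CNX1, a calnexin chaperone of glycoproteins, had 21.5 FPKM in miR164OE heat and 5.07 in miR164OE control (WT 7.54 and 3.55). The endoplasmic reticulum chaperone HSP90.7 had 15.5 FPKM in miR164OE heat and 4.63 in miR164OE control (WT 16.7 and 2.95).

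Regulators of the heat response did not move as 1 group. The row opposite HSFB2B, a class B heat shock factor of the repressor type, was AT4G05910, with 1374 FPKM in miR164OE heat and 338 in miR164OE control (difference 2.02; WT 1646 and 406). HSFC1, the class C factor, went the other way, with 50.2 FPKM in miR164OE heat and 179 in miR164OE control (difference -1.82; WT 89.4 and 173). The row opposite HSFC1, AT3G24518, had 41.4 FPKM in miR164OE heat and 98.6 in miR164OE control (difference -1.23), but 70.8 and 70.3 FPKM in WT heat and WT control. MBF1C, a coactivator needed for heat tolerance, had 25.3 FPKM in miR164OE heat and 29.1 in miR164OE control (WT 40.7 and 25.8). AT3G04685, a row of 176 bases opposite MBF1C, had 717 FPKM in miR164OE heat and 488 in miR164OE control, against 1371 FPKM in WT heat and 0 in WT control. Counted over own and opposite rows, 1 of 5 was at least 2-fold higher and 2 were lower. Of all nuclear rows 18.1% were higher and 23.9% lower. The 2 lower rows are HSFC1 and the row opposite it, a single locus.

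Several nuclear rows with large differences lay near copies of ONSEN. The 8 copies were found in the genome by their sequence, and this group was formed after the values had been seen, so it is a description only. Of 35 rows within 5000 bases of a copy, 7 reached the minimum and all 7 were at least 2-fold higher in miR164OE heat (18.1% of nuclear rows were). Of these, 6 had under 6 FPKM in control and passed the minimum through the heat library alone, so their direction was fixed by that choice. Among the 28 rows below the minimum, 6 were higher and 4 lower, and 14 were at 0 in both miR164OE libraries. The 7 rows all lay on the strand opposite to the element, as did 23 of the 35, and 4 of the 7 overlapped its 3′ end. Among these 4, the annotated locus of AT1G11270 spans the whole copy of 4931 bases. On the same strand and below the minimum, AT1G48698 had 20.9 FPKM in miR164OE heat and 1.66 in miR164OE control (difference 3.04; WT 17.97 and 0).

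AT1G21940, an uncharacterized gene 406 bases upstream of a copy, had 914 FPKM in miR164OE heat and 3.92 in miR164OE control (WT 708 and 3.997). LECRK56, a lectin receptor kinase gene (chr3:22064192-22065957), had 772 FPKM in miR164OE heat and 5.98 in miR164OE control (WT 294 and 1.301). AT5G13200, a GRAM domain gene (chr5:4206738-4208289) overlapping the 3′ end of the copy whose 5′ repeat is printed above, had 622 FPKM in miR164OE heat and 4.50 in miR164OE control (WT 483 and 2.99). In all 3 the heat libraries of both genotypes were at least 100 FPKM above their controls. AT3G61320, a bestrophin-like gene, had 182 FPKM in miR164OE heat and 1.81 in miR164OE control (WT 143 and 1.52). AT1G11270, an F-box gene, had 172 FPKM in miR164OE heat and 1.25 in miR164OE control (WT 155 and 2.53). AT1G58120 was listed at 66.7 FPKM in miR164OE heat and 0 in miR164OE control (WT 68.0 and 0). The weakest was AT3G09635, a row of 235 bases far from its copy, with 116 FPKM in miR164OE heat and 28.4 in miR164OE control (WT 159 and 97.9). The 5′ repeat held 2 heat shock motifs in 7 of the 8 copies and 1 in the copy at AT1G58140. The copies are near-identical, so reads from them are hard to place.

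**Figure D2:**
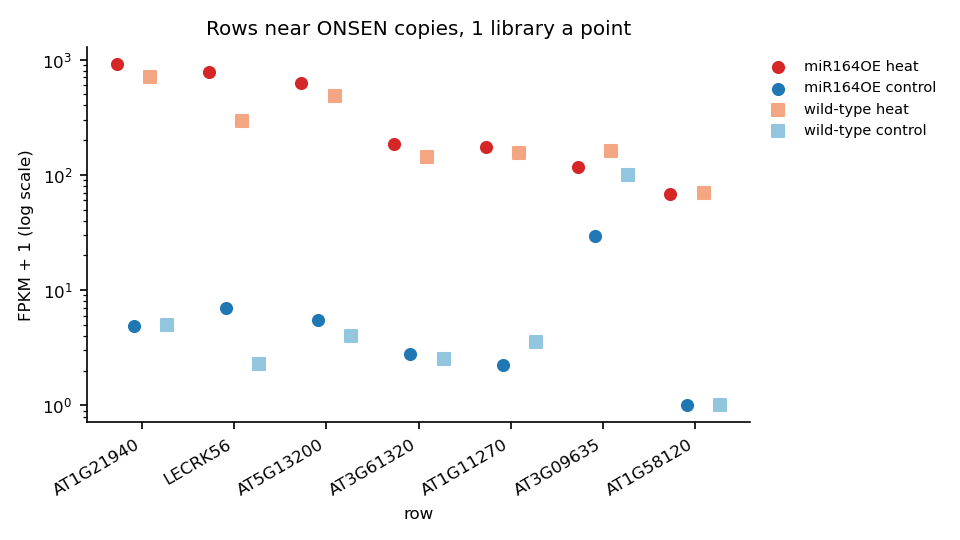
FPKM + 1 (vertical axis, log scale) of the 7 rows within 5000 bases of an ONSEN copy that reached the minimum, 1 point for each library, miR164OE as circles and WT as squares. Except in AT3G09635, both heat libraries lie far above both control libraries, with AT1G21940 at 914 FPKM in miR164OE heat and 3.92 in miR164OE control.

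Light-harvesting and photosystem subunits, which capture light and drive electron transport, were lower in miR164OE heat. Of 40 genes, 21 own rows reached the minimum: 10 were at least 2-fold lower (23.9% of nuclear rows were) and none higher, the median was -0.95, and all 21 lay below 0, as did 57.0% of all nuclear rows. With nuclear rows at a common sum the median was -0.02, with 25 rows at the minimum, 1 of them higher and 1 lower, so the direction of this group belongs to the deposited scale. In WT, 15 of the same 21 rows were lower by 2-fold or more and 1 higher, with a median of -1.56. Of the 12 rows with no overlapping gene, 5 were lower in miR164OE heat.

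LHCB1.3, a major antenna protein of photosystem II, had 33.7 FPKM in miR164OE heat and 160 in miR164OE control (difference -2.21; WT 25.5 and 169). AT1G29910, another LHCB1 gene, had 10.98 FPKM in miR164OE heat and 41.7 in miR164OE control (difference -1.83; WT 7.04 and 37.9). The LHCB1 genes are near-identical, so fragments may be shared among them in either library. LHCA1, an antenna protein of photosystem I, had 34.5 FPKM in miR164OE heat and 90.72 in miR164OE control (difference -1.37; WT 13.6 and 146). At the other end of the list, PSBY, a small photosystem II subunit, had 21.9 and 22.3 FPKM in miR164OE heat and control.

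The 3 rows opposite photosystem genes held far more FPKM than the genes' own rows and were all lower. AT2G08665, opposite LHCB1.5, had 69274 FPKM in miR164OE heat and 199133 in miR164OE control (difference -1.52; WT 72862 and 158697). AT1G55673, opposite PSAG of photosystem I, had 40225 FPKM in miR164OE heat and 182750 in miR164OE control (difference -2.18; WT 52342 and 171972). AT4G28755, a row of 285 bases opposite PSAE1 of photosystem I, had 27964 FPKM in miR164OE heat and 173586 in miR164OE control (difference -2.63; WT 38249 and 164547). These 3 rows made up 12.9% of all FPKM in miR164OE heat and 28.01% in miR164OE control. Their order by level was the same in both libraries. On the common-sum scale their median was -1.24, still lower in heat.

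**Figure D3:**
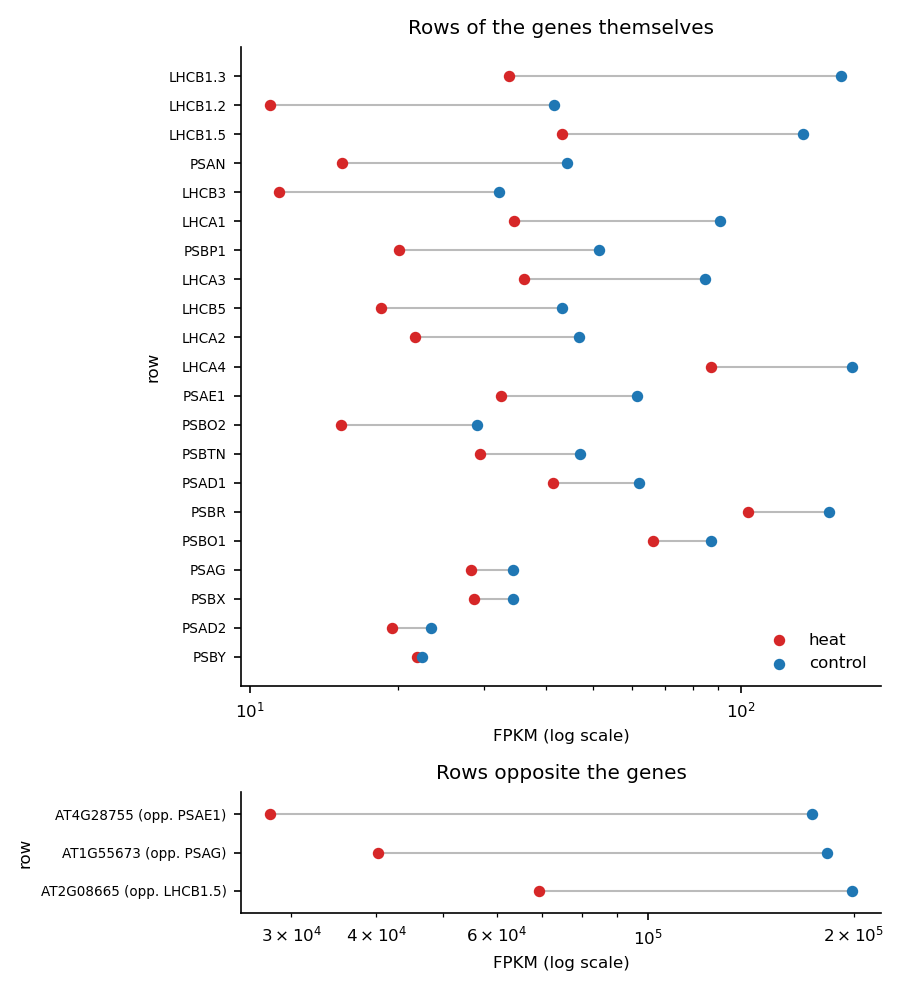
FPKM (horizontal axis, log scale) of the light-harvesting and photosystem rows that reached the minimum, heat in red and control in blue, with the genes' own rows above and the rows on the other strand below. Every heat point lies left of its control point, from PSBY at 21.9 and 22.3 FPKM to LHCB1.3 at 33.7 and 160 FPKM.

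Of the 20 genes of the Calvin cycle, which fixes carbon, 5 own rows reached the minimum. None of the 5 was called, where 18.1% of nuclear rows were higher and 23.9% lower, and their median was 0.06. With the minimum at 1 FPKM, 4 of 19 rows of this list were at least 2-fold higher and 1 lower. Of all 10378 nuclear rows at that minimum, 33.2% were higher and 18.5% lower. On the common-sum scale 4 of 8 rows were higher and the median was 1.03. RCA, rubisco activase, had 93.7 FPKM in miR164OE heat and 138 in miR164OE control (difference -0.55; WT 55.2 and 178). RBCS1A, a small subunit of rubisco, had 78.0 FPKM in miR164OE heat and 69.7 in miR164OE control (WT 72.3 and 92.1). GAPB, of the reducing step, had 24.5 and 17.7 FPKM in miR164OE heat and control. RBCS3B had 53.7 FPKM in miR164OE heat and 70.8 in miR164OE control, and its near-identical copies may share fragments.

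Several defence, storage and ageing genes differed by more than 2-fold. VSP2, a vegetative storage protein and jasmonate marker (chr5:8500468-8502224), had 55.3 FPKM in miR164OE heat and 3.80 in miR164OE control (difference 3.55), while WT heat and WT control had 7.06 and 4.09 FPKM. The other 2 jasmonate rows at the minimum were within 2-fold: AOC2, of jasmonate synthesis, had 19.6 and 28.5 FPKM in miR164OE heat and control, and MYC2, its central regulator, 22.6 and 23.9. AT1G32630, the row opposite MYC2, had 1042 FPKM in miR164OE heat and 1744 in miR164OE control (difference -0.74). LTP2, a lipid transfer protein of the cuticle, had 47.7 FPKM in miR164OE heat and 2.67 in miR164OE control (difference 3.73; WT 14.5 and 11.8). Its relative LTP1 had 57.2 and 27.7 FPKM in miR164OE heat and control (WT 31.9 and 16.7). VSP2 and LTP2 reached the minimum through the heat library alone, which fixed their direction. Of all nuclear rows at the minimum, 18.1% were higher and 23.9% lower. With the minimum at 1 FPKM, 2 of 13 jasmonate rows were higher and 2 lower, and 2 of 5 cuticle and lipid transfer rows were higher and 0 lower. The shares over all nuclear rows were then 33.2% and 18.5%.

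Both ageing genes at the minimum were lower, but they reached it through the control library alone, which fixed their direction. With the minimum at 1 FPKM, 2 of 6 rows of this list were at least 2-fold higher and 3 lower. Of all 10378 nuclear rows at that minimum, 33.2% were higher and 18.5% lower. SEN1 (listed as STR15), a senescence and dark-induced gene, was at 0 in miR164OE heat and 46.9 FPKM in miR164OE control (WT 6.61 and 92.4). WRKY53, a transcription factor of leaf ageing, had 7.45 FPKM in miR164OE heat and 39.2 in miR164OE control (difference -2.25), against 19.6 FPKM in WT heat and 17.5 in WT control. APX1, a cytosolic ascorbate peroxidase, had 32.0 FPKM in miR164OE heat and 15.1 in miR164OE control (difference 1.04; WT 12.7 and 22.5). CAT3, a catalase, had 43.1 and 21.8 FPKM in miR164OE heat and control (difference 0.95). CYP79B3, of indole glucosinolate synthesis, had 11.3 FPKM in miR164OE heat and 38.9 in miR164OE control (difference -1.70; WT 16.1 and 47.4). It was the only row of the glucosinolate list at the minimum and reached it through the control library alone, which fixed its direction. With the minimum at 1 FPKM, 9 of 15 rows of that list were at least 2-fold higher and 3 lower, against the 33.2% and 18.5% of all nuclear rows. No row of the chlorophyll, light and warmth signalling or clock lists reached the minimum.

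Among rows of at least 300 bases with no gene on the other strand, the 6 highest differences included 3 of the rows near ONSEN and AT2G07738, a row alike to mitochondrial DNA. The other 2 were AT2G18193, an ATPase family gene listed at 162 FPKM in miR164OE heat and 0 in miR164OE control (WT 228 and 0), and AT3G21680, uncharacterized, listed at 89.4 FPKM in miR164OE heat and 0 in miR164OE control (WT 89.7 and 4.84). At the low end AT5G03615, a non-coding RNA (chr5:7891346-7891734), had 96.3 FPKM in miR164OE heat and 6986 in miR164OE control (difference -6.17; WT 67.6 and 6687). Both controls stood far above both heat libraries. AT4G26600, a methyltransferase family gene, had 4.29 FPKM in miR164OE heat and 181 in miR164OE control (difference -5.11; WT 6.26 and 117.5). AT4G06195, non-coding, and AT2G24692, a BTB/POZ domain gene, were listed at 0 in miR164OE heat and at 324 and 57.1 FPKM in miR164OE control. SEN1, above, was also among the 6 lowest.

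The 6 highest rows opposite coding genes were non-coding rows of 322 to 447 bases, all listed at 0 in miR164OE control and at 93.8 to 183 FPKM in miR164OE heat. AT1G06337 led them at 183 FPKM in miR164OE heat, but had 66.9 FPKM in WT heat and 121 in WT control. AT1G09317, opposite AT1G72530, was at 121 FPKM in miR164OE heat (WT 74.3 and 0), and AT3G02925, opposite AT3G14360, at 120 FPKM in miR164OE heat (WT 63.7 and 0). The others were AT2G05255, AT3G05855 and AT3G04635. AT2G05255 also matches mitochondrial DNA. On rows this short a few fragments make a large FPKM.

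Of the 6 lowest, AT4G22510 had the highest level, with 36.5 FPKM in miR164OE heat and 1230.4 in miR164OE control (difference -5.04; WT 126 and 2091). It lies opposite AT4G22513, of the lipid-transfer protein and 2S albumin superfamily. AT5G45475 had 0.302 FPKM in miR164OE heat and 99.1 in miR164OE control (WT 0 and 76.1), and AT5G59070, a glycosyltransferase gene, 1.95 and 117 (WT 2.84 and 99.2). AT4G06215, AT1G70175 and AT5G17345 were listed at 0 in miR164OE heat and at 68.5, 58.2 and 46.1 FPKM in miR164OE control. The first of these was also lower in WT heat, at 0 against 40.3 FPKM in WT control, while AT5G17345 was at 0 in both WT libraries.

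The highest nuclear rows of at least 300 bases, beside those of LHCB1.5 and PSAG, lay opposite genes of the cell wall and of plastid translation. AT3G22121, opposite the cell wall linker protein gene CWLP, had 37878 FPKM in miR164OE heat and 95077 in miR164OE control (difference -1.33; WT 45970 and 106072). AT4G20362, opposite RABE1b, the plastid elongation factor Tu, had 16159 FPKM in miR164OE heat and 38746 in miR164OE control (difference -1.26; WT 17169 and 41240). AT1G21313, opposite EXT3, an extensin of the cell wall, had 12867 FPKM in miR164OE heat and 18345 in miR164OE control (difference -0.51), whereas WT heat and WT control had 12553 and 7124 FPKM.

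Requiring at least 20 FPKM in each of the 2 columns left 1849 nuclear rows, of which 193 were higher and 368 lower. No such row has a value of 0, but on short rows 20 FPKM can rest on a few fragments. For nuclear rows of little over 300 bases, the 10th percentile of values above 0 was 19.2 FPKM in miR164OE control. The named rows were picked here after the values were seen. AT4G12495, opposite a lipid-transfer superfamily gene (chr4:7410116-7410397, a row of 282 bases), had 12002 FPKM in miR164OE heat and 812 in miR164OE control (difference 3.88; WT 5998 and 1888). AT3G03215, opposite PDX1.2 of the vitamin B6 synthesis family, had 1830 FPKM in miR164OE heat and 199 in miR164OE control (difference 3.20; WT 2138 and 185). Both were higher in heat in each genotype, by a larger factor in miR164OE for AT4G12495. Among the highest differences at this minimum, that of AT1G05553 (2.74) was reversed in WT (-0.86), while the others were upward in WT too.

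On the lower side, 3 rows are neighbours on chromosome 4: AT4G22510 (above), AT4G22495 and AT4G22475, between positions 11844242 and 11857417. Each lies opposite a gene of the same superfamily as the gene opposite AT4G12495, which was higher. AT4G22495 had 27.2 FPKM in miR164OE heat and 783 in miR164OE control (WT 58.2 and 728). AT4G22475 had 36.5 FPKM in miR164OE heat and 549 in miR164OE control (WT 51.1 and 506). AT5G08275 on chromosome 5 had 28.8 FPKM in miR164OE heat and 906 in miR164OE control (difference -4.93; WT 38.8 and 851). AT1G03140, a splicing factor gene of the Prp18 family with no gene opposite it, had 34.2 FPKM in miR164OE heat and 459 in miR164OE control (difference -3.71; WT 52.1 and 426). AT4G08985, opposite the redox-responsive factor RRTF1, had 40.7 FPKM in miR164OE heat and 376 in miR164OE control (difference -3.18; WT 19.4 and 286). Heat was below control in both genotypes in each of these rows. Among the lowest differences at this minimum, those of 2 short rows were reversed in WT. These were AT3G09345 (-3.70, WT 1.56) and AT3G01525 (-3.21, WT 1.06). A further row, AT5G25750, had 29.4 FPKM in miR164OE heat and 253 in miR164OE control, and was at 0 in both WT libraries.

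Mitochondrial rows were higher in miR164OE heat without exception among those listed above 0. Of the 152 rows, 62 were above 0 in heat and 30 in control, and all 62 were higher in heat. Their FPKM summed to 34963 in miR164OE heat and 1350 in miR164OE control, or 25.9-fold, and to 28927 and 1172 in WT heat and WT control, or 24.7-fold. They made up 3.28% of all FPKM in miR164OE heat and 0.0681% in miR164OE control. Of the 41 rows at the minimum 41 were higher by 2-fold or more (100%) and 0 lower (0.00%). Over all 2482 rows the shares were 19.5% and 23.6%. Only 9 of the 41 had at least 20 FPKM in both libraries, and their median difference was 4.44. The others, of which 18 were at 0 in control, reached the minimum through the heat library alone, which fixed their direction.

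ORF107A, an open reading frame of unknown function, held most of the signal, with 19566 FPKM in miR164OE heat and 742 in miR164OE control (difference 4.72; WT 16209 and 563). Without it the mitochondrial sum was still 25.3-fold higher in miR164OE heat. ORF131 had 3021 FPKM in miR164OE heat and 99.7 in miR164OE control (WT 2688 and 160), and ORF240B 2458 and 22.3 (WT 1925 and 17.79). All 3 were more than 20-fold higher in miR164OE heat.

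Open reading frames gave 28 of the 41 rows, and genes of the respiratory chain the next largest share. COX1, a subunit of cytochrome c oxidase, had 117 FPKM in miR164OE heat and 3.71 in miR164OE control (WT 93.4 and 9.91). COX2, of the same complex, was listed at 130.5 FPKM in miR164OE heat and 0 in miR164OE control (WT 90.297 and 9.32). Of 14 complex I rows, 5 reached the minimum, among them NAD9 at 45.1 FPKM in miR164OE heat and 0 in miR164OE control. ORF25, which encodes a subunit of ATP synthase, was listed at 282 FPKM in miR164OE heat and 0 in miR164OE control (WT 163 and 0). CCB206, of cytochrome c maturation, had the highest control level after ORF107A, with 1785 FPKM in miR164OE heat and 204 in miR164OE control (WT 1804 and 152).

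The other 4 rows of largest difference, ORF111D, ORF105B, ORF153A and ORF149, were listed at 139 to 243 FPKM in miR164OE heat and 0 in miR164OE control. The smallest differences were those of ORF107D, with 108 FPKM in miR164OE heat and 27.0 in miR164OE control (difference 1.95), and of NAD1C, with 51.5 and 12.4 (difference 1.98; WT 23.52 and 12.9). ORF145C and ORF143 followed, at 2.29 and 3.07, and CCB206 at 3.12. The ribosomal RNA rows RRN26 and RRN18 had 95.0 and 60.6 FPKM in miR164OE heat, and 1.25 and 1.62 in miR164OE control. No tRNA row was above 0, and the 3 ribosomal protein rows above 0 in heat held 77.7 FPKM in miR164OE heat and 4.59 in miR164OE control.

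**Figure D4:**
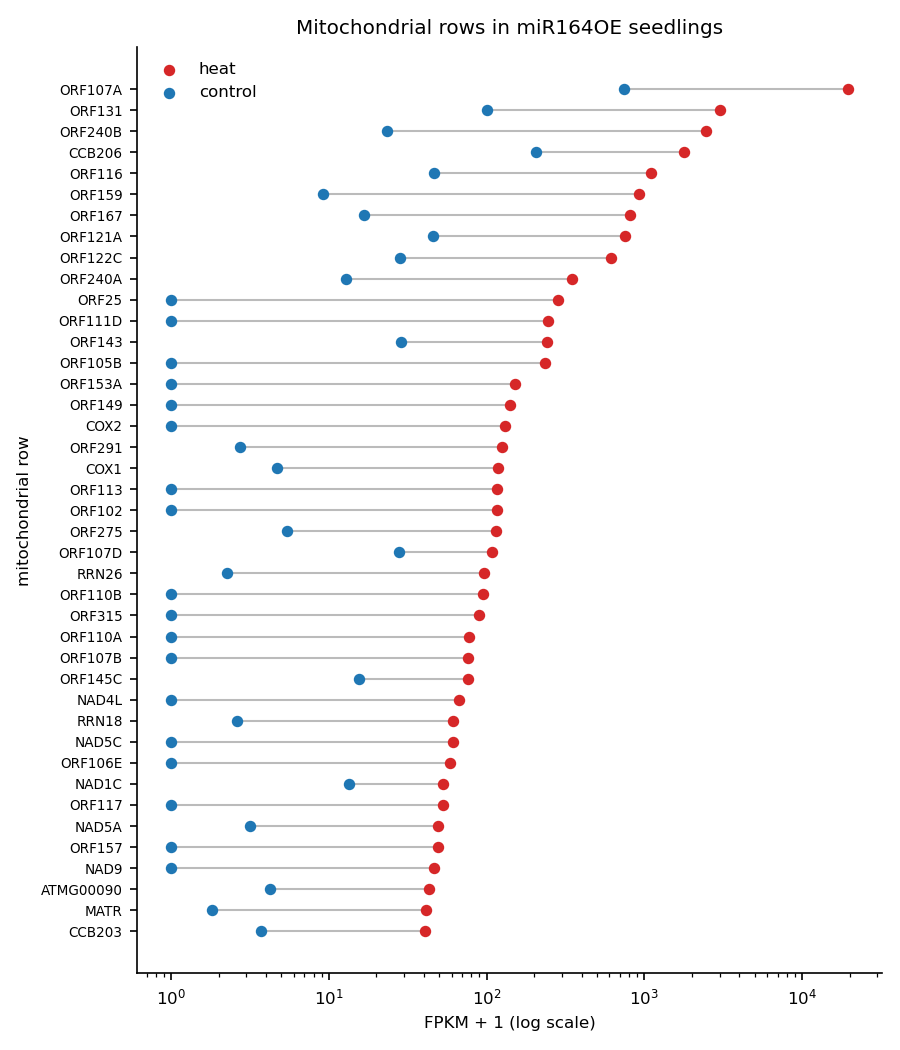
FPKM + 1 (horizontal axis, log scale) of the 41 mitochondrial rows that reached the minimum, heat in red and control in blue, ordered by the heat value. Every heat point lies right of its control point, and the 18 rows at the left edge were listed at 0 in miR164OE control.

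Part of the nuclear genome followed the mitochondrial rows. The nuclear rows with at least 50% of their bases matching the mitochondrial genome and reaching the minimum numbered 13, all on chromosome 2 between positions 3263619 and 3502294, where Arabidopsis carries a known insertion of mitochondrial DNA. Each matched over its whole length, at 99.8% identity or more in its best match, so fragments of either genome fit both. All 13 were at least 2-fold higher in miR164OE heat, with differences of 3.12 to 8.43 (18.1% of all nuclear rows were higher). Only 5 of them had 20 FPKM in both libraries, and the other 8 passed the minimum through the heat library alone, which fixed their direction. AT2G07739 had 2654 FPKM in miR164OE heat and 97.4 in miR164OE control (WT 2463 and 93.9). AT2G07835 had 1922 FPKM in miR164OE heat and 56.2 in miR164OE control (WT 1366 and 47.4). AT2G07738, the highest free-standing nuclear row above, was listed at 344 FPKM in miR164OE heat and 0 in miR164OE control (WT 306 and 0). Without the 13 rows, 427 nuclear rows were higher and 581 lower, and without these and the 7 rows near ONSEN 420 and 581.

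Plastid rows did not move in 1 direction. Only 6 of 133 reached the minimum, 2 at least 2-fold higher (33.3%) and 4 lower (66.7%), and these 6 rows had 132 to 306 bases. Over all 2482 rows the shares were 19.5% and 23.6%. Of the 6, only 2, RPL33 and PSBN, had at least 20 FPKM in both libraries. The others passed the minimum through 1 library alone, which fixed their direction. RPL33, a protein of the plastid ribosome, had 842 FPKM in miR164OE heat and 353 in miR164OE control (difference 1.25; WT 922 and 725). RPS18, also ribosomal and the neighbouring locus by number, had 46.8 FPKM in miR164OE heat and 18.4 in miR164OE control (difference 1.302; WT 109 and 38.05). PSBN, whose gene lies on the strand opposite to its neighbours in the psbB cluster and is needed for photosystem II assembly, had 460 FPKM in miR164OE heat and 2878 in miR164OE control (difference -2.64; WT 307 and 2023). PSBK of photosystem II, RPS14 and PSAC of photosystem I were listed at 0 in miR164OE heat and at 256, 58.1 and 43.1 FPKM in miR164OE control, and all 3 were at 0 in both WT libraries.

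Below the minimum the plastid picture was different. Of 46 plastid rows above 0 in either library, 35 were higher in miR164OE heat and 11 in miR164OE control, and with the minimum at 5 FPKM 24 passed the 2-fold rule upwards and 7 downwards. Of all nuclear rows at 5 FPKM, 25.2% were higher and 21.6% lower. Some of the plastid rows counted upwards, such as PETD, PETB and NDHA, were listed at 0 in miR164OE control. They passed through the heat library alone, which fixed their direction. Rows of the RNA polymerase subunits summed to 33.3 FPKM in miR164OE heat and 8.87 in miR164OE control, those of the NDH complex to 132 and 54.5, and those of the cytochrome b6f complex to 77.1 and 10.03. The median difference of the plastid rows was -4.05 at the minimum of 20 FPKM and 1.44 at 5 FPKM. The rows at 20 FPKM therefore do not describe the plastid genome as a whole.

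The heat differences of miR164OE and WT, which share no library, were set side by side over the 2435 nuclear rows. In WT heat, 538 of them were higher by 2-fold or more (22.1%) and 504 lower (20.7%). Rows higher in both genotypes numbered 290, which is 65.9% of the miR164OE list and 53.9% of the WT list. Rows lower in both numbered 321, or 55.3% of the miR164OE list and 63.7% of the WT list. The correlation across these rows, with no p, was 0.46 (Pearson) and 0.65 (Spearman), and 0.68 and 0.73 over the 2084 rows of at least 300 bases. The minimum was set on the miR164OE columns, and genes are not independent replicates. Of the 13 mitochondrion-like rows all were higher in WT heat too, and of the 7 rows near ONSEN 6 were by at least 2-fold.

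Rows that went at least 2-fold the opposite way in WT numbered 18 of the 440 higher and 37 of the 581 lower ones. Differences seen in miR164OE and under 2-fold in WT include those of VSP2, LTP2, HSP70-1, WRKY53 and APX1, with the values given above. Apart from HSP70-1, these rows reached the minimum through 1 miR164OE library alone, which fixed their direction in miR164OE but not in WT. With 1 library in each group it was not tested whether the genotypes differ in them.

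**Figure D5:**
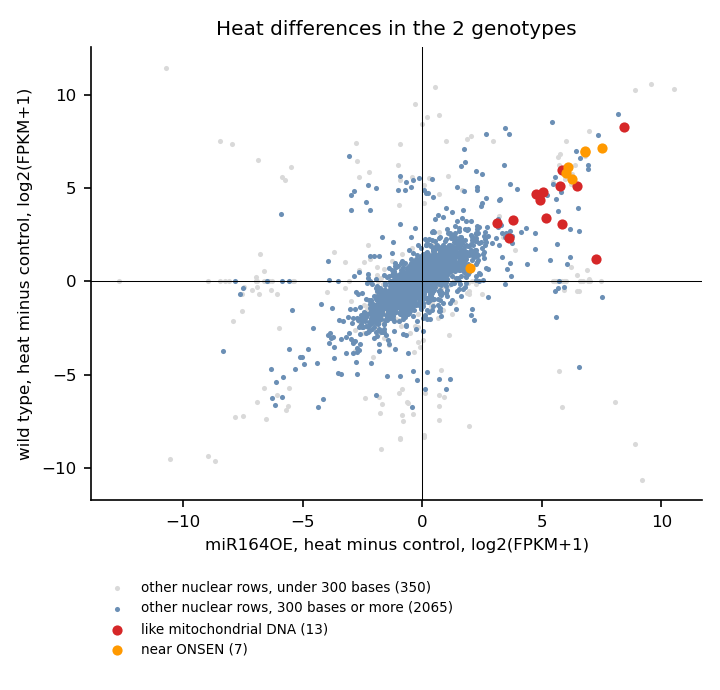
Heat minus control on the log2(FPKM+1) scale in miR164OE (horizontal axis) and WT (vertical axis), 1 point for each of the 2435 nuclear rows, with short rows, mitochondrion-like rows and rows near ONSEN marked by colour. The 13 mitochondrion-like and the 7 ONSEN rows lie in the upper right.

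The cut at 20 FPKM was not a natural boundary. Just inside it, AT4G01670 had 12.5 FPKM in miR164OE heat and 27.5 in miR164OE control, and AT1G05607 was at 0 in miR164OE heat and 40.02 FPKM in miR164OE control. Just outside it, RPL6B had 17.9 and 22.0 FPKM, and AT3G19000 16.7 and 23.2. In all, 622 of the 2482 rows had under 20 FPKM in 1 of the columns, and 156 were listed at 0 in one.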

How the data were processed

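Whole-seedling RNA gave 4 libraries; the Agilent SureSelect kit used keeps strand, per the labels. FPKM values, made by the authors, come from 1 deposited table. The processing used bcl2fastq 2.1.7, TopHat, Cufflinks and the build TAIR10, per the submitters' processing notes; the sources used here give neither strand setting nor depth. Exon lengths, strands and overlaps came from RefSeq's TAIR10.1 annotation, which held a gene for all 32538 nuclear rows. A pseudocount of 1, a mean of at least 20 FPKM and a 2-fold rule were used, with no test; the rule was tested on simulated data. ONSEN copies and matches to mitochondrial DNA were found with BLAST+ 2.17.0. The members and lists were chosen with earlier results of these data known. Named rows were, among those of at least 300 bases, the 6 highest and 6 lowest differences with no overlap and opposite a coding gene, and the 5 highest levels; 5 highest and 5 lowest organelle rows; the 3 highest mitochondrial levels; up to 4 rows of a list with 3 or more; the miR164 targets; and rows at the cut. One row that this rule names is not reported here. Others were chosen after their values were seen. Fragments behind a row were estimated from the FPKM worth of 1 fragment. Scripts ran in Python 3.11.15 with pandas 2.3.3 and numpy 2.4.6.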

Additional observations from a re-analysis of the deposited data

Results flagged for a closer look

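The row AT1G70175, of 318 bases opposite the matrix metalloproteinase gene MMP, differed between the genotypes in direction. It was listed at 0 in miR164OE heat and 58.2 FPKM in miR164OE control, and at 11.1 FPKM in WT heat and 0 in WT control. On the log2(FPKM + 1) scale the heat difference was -5.89 in miR164OE and 3.599 in WT, sizes that depend on the pseudocount. The miR164OE control value stands for about 8.37 fragments. The difference between the genotypes was not tested.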

How the results depend on the processing

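No paired analysis was possible because each group holds 1 library, and for the same reason no library could be left out. As reported, 440 nuclear rows were higher and 581 lower in miR164OE heat (median -0.18), with 41 mitochondrial rows higher (median 5.53) and 2 plastid rows higher and 4 lower (median -4.05). A pseudocount of 0.1 gave medians of 6.14 (mitochondrial) and -5.70 (plastid), and one of 5 gave 4.01 and -2.95; the counts stayed within 1.5 times. A minimum of 1 FPKM gave 3450 nuclear rows higher and 1916 lower (median 0.29), a mitochondrial median of 4.65, and 28 plastid rows higher and 7 lower (median 1.502). A minimum of 5 FPKM gave 1189 and 1018 (median 0.018), 4.73, and 24 and 7 (median 1.44). A minimum of 50 FPKM gave 204 and 381 (median -0.29), 23 mitochondrial rows higher, and 1 plastid row higher and 2 lower (median -2.64). Requiring 20 FPKM in both libraries gave 193 and 368, 9 mitochondrial rows higher (median 4.44), and 1 plastid row each way (median -0.70). A common nuclear sum gave 1361 and 236 (median 0.88), a mitochondrial median of 5.85, and 11 plastid rows higher (median 2.23). Heat values rescaled by 1.14 to bring the nuclear median near 0 (0.011) gave 549 nuclear rows higher and 504 lower, the opposite balance, a mitochondrial median of 5.70 and 5 plastid rows higher (median 1.44). Rows of at least 300 bases gave 1 plastid row each way (median -2.29), and a minimum of 40 estimated fragments a mitochondrial median of 4.83 and 1 plastid row each way (median -0.70). The plastid median thus changed sign under 4 settings; the cause was not tested. No mitochondrial row was lower under any setting. Leaving out the mitochondrion-like rows, and those near ONSEN, was chosen after seeing the data and kept both nuclear counts within 1.5 times. Of the values of named rows under the alternatives, 521 stayed within their counting error and 58 moved. Many of the 521 come from settings that only change which rows pass, where a row's own value cannot move. The common sum moved 28 rows and left 38. Rescaling by 1.14 moved 7 and left 59. A pseudocount of 0.1 moved 23 and left 43, and a pseudocount of 5 left all 66. On the common-sum scale 6 rows, all under 2-fold as reported, changed from lower to higher: AT1G21313 (0.43), RCA (0.38), RBCS3B (0.54), AT1G32630 (0.20), AOC2 (0.39) and MYC2 (0.84). MYC2 also did so with the nuclear median near 0 (0.10).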
